A study of Mus musculus with 8 samples.

Results

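The placement of epitope-tagged histone H3 was examined at 6 genes for the cytoskeleton and the response to serum, Ctgf, Cyr61, Vim, Thbs1, Acta2 and Actb. The cells were C3H10T1/2, a mouse mesenchymal progenitor line from C3H embryos, kept in medium with fetal bovine serum. The groups used were 4 lines, each stably expressing a FLAG-HA-tagged histone on top of the cells' own: wildtype H3.1 (H3.1WT), H3.1K36M, wildtype H3.3 (H3.3WT) or H3.3K36M, in which K36M replaces lysine with methionine in the histone tail. Each line gave 1 library of HA chromatin immunoprecipitation (ChIP-seq), so nothing below has a replicate check and no test between lines was possible. No RNA was measured, and the sources used here do not say whether a line was a clone or a pool.

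Members were chosen by gene name and position and not by a rule on their signal, but with earlier results of these data known. Each gene was given a window of 10 to 30 kb in the mouse build mm9, and its flanks were the 50 kb on either side. The deposited table gives signal in rows of 10 kb as RPM, reads scaled to a common library size. A ratio between libraries thus compares shares of reads, not amounts of histone. The windows took 11 rows and the flanks 60, which makes 71 of the 253926 rows in the table. Of all rows, 245206 served as the background ("all bins" below). The windows were chr10:24310001-24320000 (Ctgf), chr3:145300001-145320000 (Cyr61), chr2:13490001-13510000 (Vim), chr2:117930001-117960000 (Thbs1), chr19:34310001-34330000 (Acta2) and chr5:143660001-143670000 (Actb). Gene models of mm9 were not used here, so where exons, introns or start sites fall within a window is not given, and a row can hold sequence beyond the gene.

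H3.1 is assembled into chromatin mainly behind the replication fork by the chaperone CAF-1, whereas H3.3 is also placed outside replication, by HIRA at transcribed genes and regulatory elements. Nucleosomes over active genes are lost and replaced often, and H3.3 is known to accumulate there. Serum and mechanical tension act on these genes through serum response factor (SRF) with its actin-sensing cofactors, and through the coactivators YAP and TAZ, which bind DNA with TEAD factors. Ctgf, Cyr61 and Thbs1 encode secreted matricellular proteins, Vim encodes the intermediate filament protein of mesenchymal cells, and Acta2 and Actb encode smooth muscle alpha-actin and cytoplasmic beta-actin.

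Promoter sequence is shown for the 3 of 6 genes that matched the RefSeq promoter table, so that the letters searched for can be seen in place. Each is the 200 bases before the annotated start in GRCm38.p6, a later build whose positions differ from those of mm9 used elsewhere here. They lie at chr3:145649986-145650185 on the minus strand (Cyr61, listed as Ccn1), chr2:13574111-13574310 on the plus strand (Vim) and chr19:34255374-34255573 on the minus strand (Acta2). Capitals mark the TEAD motif (GGAATG or CATTCC) and the TATA motif (TATAAA), both searched on both strands.
Cyr61: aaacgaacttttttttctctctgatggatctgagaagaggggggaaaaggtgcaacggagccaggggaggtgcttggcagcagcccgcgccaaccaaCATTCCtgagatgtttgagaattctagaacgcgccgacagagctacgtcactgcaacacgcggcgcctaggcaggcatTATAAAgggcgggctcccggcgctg
Vim: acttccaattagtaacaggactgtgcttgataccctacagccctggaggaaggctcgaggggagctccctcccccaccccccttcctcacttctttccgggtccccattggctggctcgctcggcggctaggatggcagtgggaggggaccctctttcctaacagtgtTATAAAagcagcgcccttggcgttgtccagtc
Acta2: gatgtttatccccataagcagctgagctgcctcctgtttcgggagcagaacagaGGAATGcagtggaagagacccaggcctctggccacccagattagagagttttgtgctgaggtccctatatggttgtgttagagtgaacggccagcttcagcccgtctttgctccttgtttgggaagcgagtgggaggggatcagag
The TEAD motif begins 103 bases before the start in Cyr61 and 146 bases before it in Acta2. Of 32851 mouse promoters of 300 bases, 14.7% hold it. TATAAA begins 25 bases before the start in Cyr61 and 32 bases before it in Vim, and 13.6% of promoters hold it. The strict CArG box, the SRF motif, is in 1.63% of promoters and in none of these 3. Only the form CC, then 6 of A or T, then GG was searched. Stretches that differ from it by a single base were not counted, such as ccctatatgg and ccttgtttgg in the Acta2 sequence. Whether SRF can bind these promoters was therefore not tested. A match describes letters and shows no binding, and 10 kb rows are far coarser than a motif.

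In the WT lines the windows held a larger share of the H3.3 reads than of the H3.1 reads. H3.3WT signal in the windows ranged from 9.06 RPM per 10 kb at Cyr61 to 18.4 RPM at Actb, which is 3.27 to 6.64 times the library median of 2.77 RPM. H3.1WT signal ranged from 1.44 RPM at Actb to 4.85 RPM at Acta2, which is 0.395 to 1.33 times its library median of 3.65 RPM. All 11 window rows were above the H3.3WT library median, and 7 of 11 were above that of H3.1WT. Of the 11 window rows, all 11 had an RPM at least 2-fold higher in H3.3WT than in H3.1WT, while 10.3% of all bins did. No window row was 2-fold lower, against 16.8% of all bins. In the flanks, 11 of 60 rows were 2-fold higher and 1 was 2-fold lower. The median log2 ratio of the 6 windows, each averaged over its rows, was 2.00. By single rows it was 1.90 for the 11 window rows, 0.55 for the flank rows and -0.43 for all bins.

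**Figure D1:**
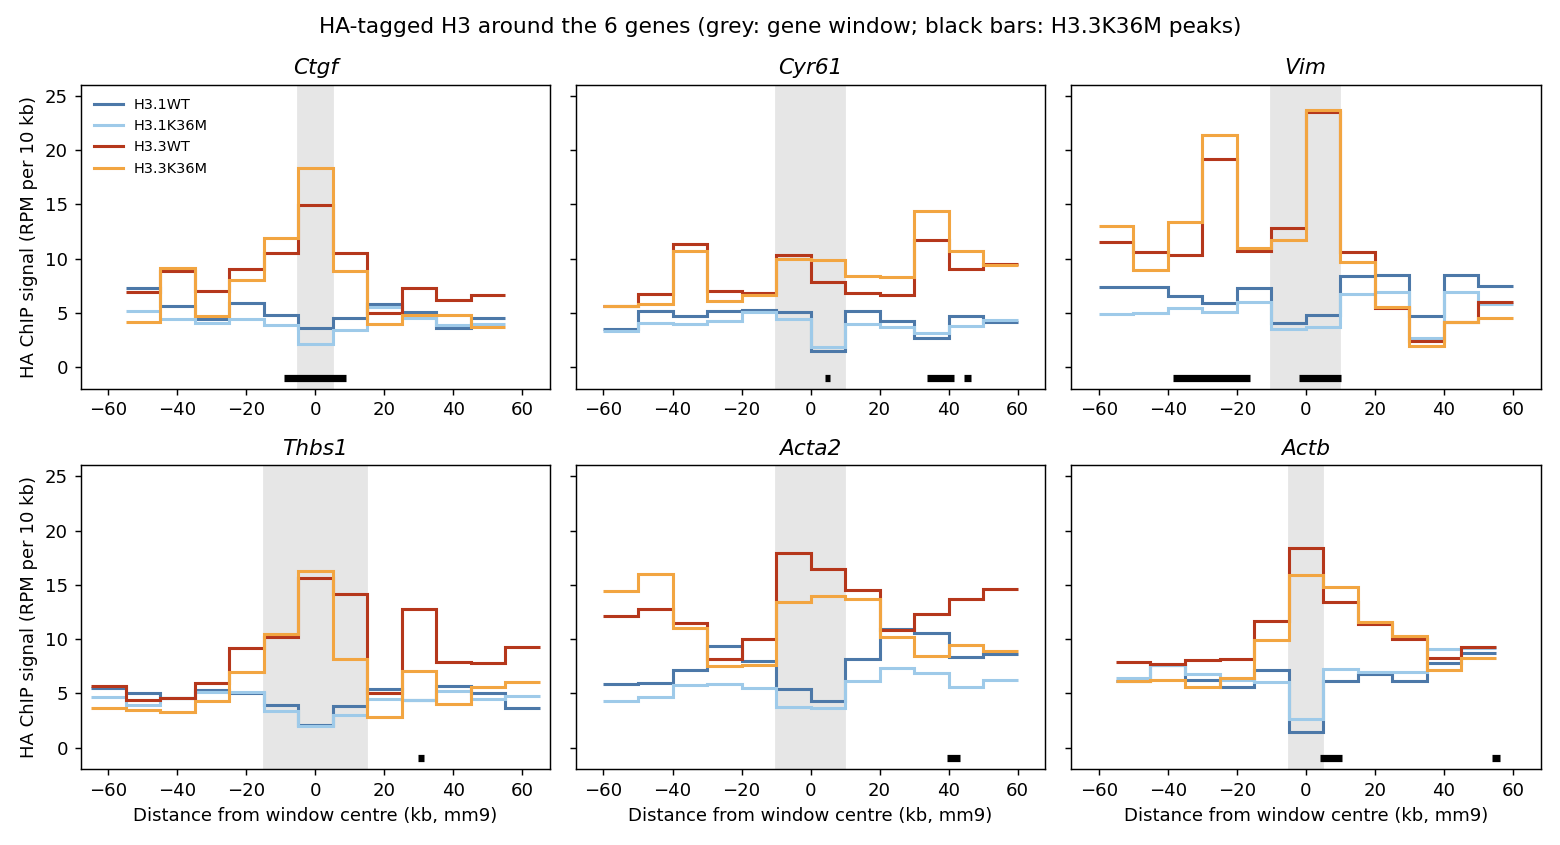
HA signal in RPM per 10 kb (y axis) against the distance from the centre of each gene's window in kb (x axis), with 1 line for each of the 4 libraries. Grey marks the window and black bars the authors' H3.3K36M peaks. In the Actb window H3.1WT falls to 1.44 RPM while H3.3WT reaches 18.4 RPM. No Cyr61 window row lies above the mean of its flanks in H3.3WT and below it in H3.1WT.

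Among the genes for secreted proteins, Ctgf had a window of 1 row. The H3.3WT library held 14.9 RPM and H3.3K36M 18.3 RPM, while H3.1WT held 3.62 RPM and H3.1K36M 2.12 RPM. Both H3.3 libraries were thus above both H3.1 libraries, by 4.11-fold in WT (95% counting interval 3.40 to 5.01) and 8.63-fold in K36M (6.91 to 10.9). H3.3K36M in this row was at or above 99.78% of all bins. Both neighbouring rows were next in H3.3WT, at 10.5 RPM each. Ctgf, or Ccn2, encodes connective tissue growth factor.

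Thbs1, which encodes thrombospondin 1, had its highest H3.3 and lowest H3.1 in the middle row of its window, chr2:117940001-117950000. There H3.3WT held 15.6 RPM and H3.3K36M 16.3 RPM, while the H3.1 libraries were alike at 2.07 RPM (WT) and 2.02 RPM (K36M). The H3.3 to H3.1 ratio was 7.57 (5.94 to 9.76) in WT and 8.05 (6.40 to 10.2) in K36M. The row before it held 10.2, 10.5, 3.93 and 3.33 RPM in the same order. In the row after it the H3.3 lines parted, H3.3WT at 14.2 RPM against 8.16 RPM for H3.3K36M, while H3.1WT held 3.85 RPM and H3.1K36M 2.99 RPM.

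Cyr61 was the gene whose H3.3WT maximum lay outside its window; in H3.3K36M that held for Acta2 as well. The row chr3:145300001-145310000 had H3.3WT at 10.3 RPM and H3.3K36M at 9.997 RPM, beside 5.04 RPM of H3.1WT and 4.46 RPM of H3.1K36M. The other window row, chr3:145310001-145320000, held 7.83, 9.84, 1.50 and 1.88 RPM in that order. H3.3WT over H3.1WT came to 2.04 (1.72 to 2.44) in the first row and 5.22 (3.90 to 7.10) in the second, where H3.1WT was far lower and H3.3WT somewhat lower. The highest H3.3 was instead in the flank, at chr3:145340001-145350000, where H3.3WT held 11.7 RPM and H3.3K36M 14.4 RPM. H3.1WT held 2.66 RPM there and H3.1K36M 3.11 RPM, both under their library medians. Cyr61, or Ccn1, belongs with Ctgf to the CCN family of matrix-associated signalling proteins.

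Vim held the highest H3.3 of any of the 71 rows. In chr2:13500001-13510000, H3.3WT held 23.5 RPM and H3.3K36M 23.7 RPM, at or above 99.96% and 99.95% of all bins. H3.1WT held 4.75 RPM and H3.1K36M 3.71 RPM in that row. The other window row had H3.3WT at 12.8 RPM and H3.3K36M at 11.7 RPM, beside 4.02 RPM of H3.1WT and 3.52 RPM of H3.1K36M. A separate H3.3 maximum lay in the flank at chr2:13470001-13480000, 19.2 RPM for H3.3WT and 21.4 RPM for H3.3K36M, parted from the window by a row of 10.7 and 11.0 RPM. On the far side of the window H3.3 was as low as 2.39 RPM (H3.3WT) and 1.97 RPM (H3.3K36M) at chr2:13530001-13540000, below the median of all bins. Trdmt1 and St8sia6 are the protein-coding genes next to Vim in the RefSeq order, but no neighbour was placed on the rows.

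The actin genes differed in their H3.1. At Actb the window row held 18.4 RPM of H3.3WT and 15.9 RPM of H3.3K36M, against only 1.44 RPM of H3.1WT and 2.65 RPM of H3.1K36M. Only 2.10% of all bins were at or below this H3.1WT signal, which rested on 51 reads. The ratio of H3.3 to H3.1 at Actb was 12.8 (9.62 to 17.3) in WT, the highest of the 6 windows, and 5.99 (4.88 to 7.41) in K36M. At Acta2 the window rows held 17.9 and 16.4 RPM of H3.3WT, 13.4 and 14.0 RPM of H3.3K36M, 5.38 and 4.33 RPM of H3.1WT and 3.76 and 3.62 RPM of H3.1K36M. Its H3.3K36M maximum was in the flank, at chr19:34270001-34280000 with 16.0 RPM. Its H3.3 to H3.1 ratio was 3.54 (3.15 to 3.99) in WT and 3.72 (3.27 to 4.24) in K36M.

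**Figure D2:**
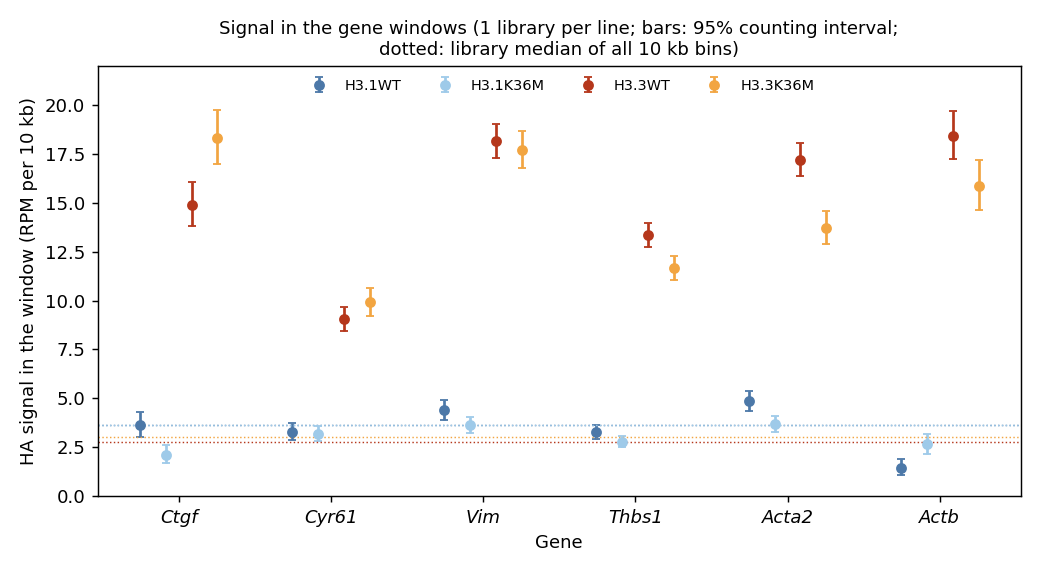
HA signal in each gene's window in RPM per 10 kb (y axis) by gene (x axis), 1 point per library with its 95% counting interval; dotted lines are the library medians. H3.3 lies between 9.06 and 18.4 RPM in all 6 windows, and H3.1 between 1.44 and 4.85 RPM.

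Ranked by H3.3WT, the windows ran Actb, Vim (18.2 RPM), Acta2 (17.2 RPM), Ctgf, Thbs1 (13.3 RPM) and Cyr61. Counting intervals of neighbours in this order overlapped except between Acta2 and Ctgf and between Thbs1 and Cyr61. In H3.3K36M the order was Ctgf, Vim (17.7 RPM), Actb, Acta2 (13.7 RPM), Thbs1 (11.6 RPM) and Cyr61 (9.92 RPM), and the intervals of Ctgf and Vim, and of Vim and Actb, overlapped. In H3.1WT Actb lay apart at the bottom, and the neighbours among the other 5 overlapped. In H3.1K36M all neighbours overlapped, from Acta2 at 3.69 RPM down to Ctgf at 2.12 RPM. Cyr61 was lowest in both H3.3 libraries.

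The K36M lines showed the same arrangement. All 11 window rows held at least 2-fold more H3.3K36M than H3.1K36M, against 8.18% of all bins, and none was 2-fold lower, against 3.29%. In the flanks 16 of 60 rows were 2-fold higher, 6 of them at Cyr61 and none at Thbs1. The median log2 ratio was 2.14 for the 6 windows. By single rows it was 1.93 for the 11 window rows, 0.49 for the flank rows and -0.30 for all bins.

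Each window was also compared with its own flanks within a library, a ratio that needs no scaling between libraries. H3.3WT was higher in the window than in the flanks at 6 of 6 genes, from 1.11-fold at Cyr61 (1.03 to 1.20) to 2.00-fold at Vim (1.89 to 2.12). H3.3K36M was likewise higher at 6 of 6, from 1.15-fold at Cyr61 (1.06 to 1.25) to 2.87-fold at Ctgf (2.64 to 3.12). H3.1WT went the other way and was lower in the window at 6 of 6 genes. Its ratio of window to flanks was 0.729 at Cyr61, 0.704 at Ctgf, 0.661 at Thbs1, 0.608 at Vim, 0.585 at Acta2 and 0.212 at Actb (0.157 to 0.279). H3.1K36M was lower at 6 of 6 genes too, with ratios between 0.366 at Actb and 0.802 at Cyr61. All 24 of these counting intervals lay clear of 1. Taken row by row, 9 of the 11 window rows, at 5 genes, were above the flank mean in H3.3WT and below it in H3.1WT, and 10 rows at all 6 genes were so in the K36M lines. Cyr61 was the gene without such a row in WT: its first row was above the flank mean in both, 1.27-fold for H3.3WT and 1.12-fold for H3.1WT, and its second row was below it in both, at 0.963 and 0.334. Over the genome, a single row was above the mean of its 5 neighbours on either side at 46.6% of positions in H3.3WT and 43.7% in H3.3K36M. It was below that mean at 47.1% of positions in H3.1WT and 46.3% in H3.1K36M. The share of positions with H3.3 above and H3.1 below in the same row was not computed. The row counts by both libraries thus have no background of their own. In windows of more than 1 row, the flank mean also leaves out the other window rows, unlike the mean of adjoining neighbours.

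**Figure D3:**
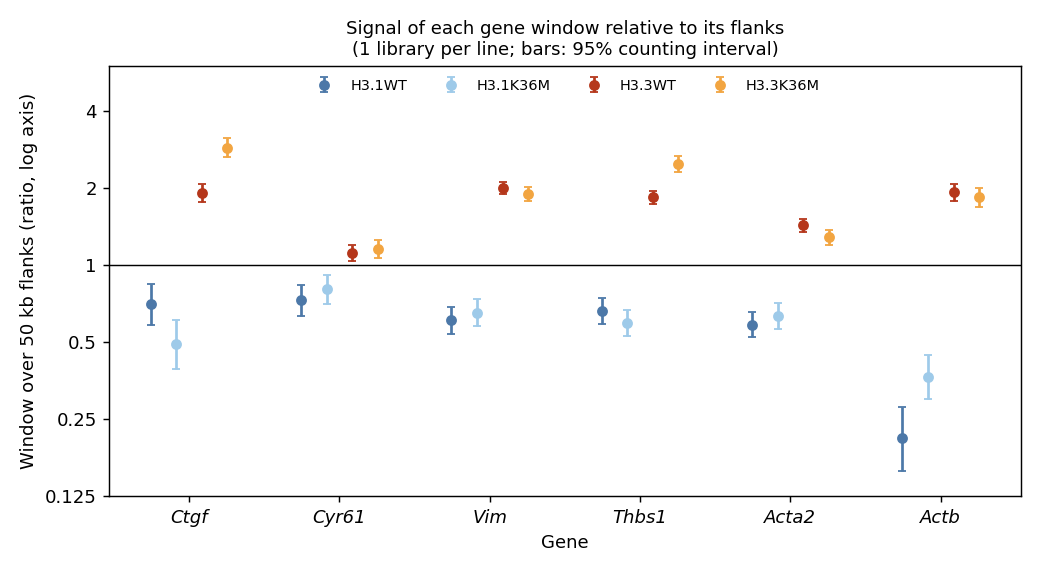
Ratio of the window's signal to that of its 50 kb flanks (y axis, log scale) by gene (x axis), 1 point per library with its 95% counting interval. Every H3.3 point lies above 1, between 1.11 and 2.87, and every H3.1 point below 1, between 0.212 and 0.802.

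These contrasts were set beside positions across the genome with a window of the same number of rows. Only unbroken stretches of background rows counted, which gave 200623 to 207228 positions by window size. An H3.1WT dip as deep as that at Actb occurred at 0.103% of positions, and dips like those at Acta2, Thbs1 and Vim at 1.28%, 1.64% and 1.69%. The dips at Cyr61 and Ctgf were shallower, with 6.03% and 7.66% of positions as low. An H3.3WT rise as high as that at Vim occurred at 0.566% of positions, at Thbs1 at 0.850%, at Actb at 1.18% and at Ctgf at 1.20%. The rise at Acta2 was matched at 5.63% of positions and that at Cyr61 at 27.5%. For the H3.1K36M dips the shares were 0.714% (Thbs1), 0.856% (Actb), 2.17% (Acta2), 2.34% (Ctgf), 2.67% (Vim) and 10.8% (Cyr61). For the H3.3K36M rises they were 0.144% (Thbs1), 0.208% (Ctgf), 1.48% (Vim), 2.82% (Actb), 14.3% (Acta2) and 24.2% (Cyr61). The flanks were themselves above the genome's usual level, the 60 rows having a median of 8.94 RPM for H3.3WT and 5.86 RPM for H3.1WT, so the H3.1 dips stood in surroundings with more H3.1 than the library median. Input libraries were not used here, so the share of background reads in the low H3.1 rows was not tested.

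The authors' deposited lists held 10 H3.3K36M peaks in the windows and flanks, at least 1 at each gene, and 4 of them touched a window. The peak chr10:24306001-24323800 (17.8 kb) covered the whole Ctgf window. At Vim, chr2:13498001-13510200 (12.2 kb) lay over the row of highest signal, and chr2:13461401-13483800 (22.4 kb) over the flank maximum. The Cyr61 window held a peak of 1.4 kb, chr3:145314201-145315600, inside the row with little H3.1, and 2 further peaks of 8 kb and 2.2 kb lay 23.6 and 34.4 kb past the window. At Actb, chr5:143669001-143675600 (6.6 kb) entered the window by 1 kb only. Peaks overlapped 5 of 11 window rows and 13 of 60 flank rows, against 4.25% of all bins. All 11 window rows held at least 8.16 RPM of H3.3K36M, and of the 18282 bins at or above that level 38.0% had a peak. None of the 73 H3.1K36M peaks, a list covering 0.204 Mb in all, lay in the windows or flanks.

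High signal and peaks did not always coincide. The windows of Thbs1 and Acta2 held no H3.3K36M peak. Yet the middle Thbs1 row had 16.3 RPM of H3.3K36M, and of the 1080 bins with that much signal or more 76.0% had a peak. Both Acta2 rows had at least 13.4 RPM, and 61.0% of the 3021 bins at or above that level had a peak. The Thbs1 locus did have a peak of 1.8 kb in its flank, chr2:117974601-117976400, in a row holding 7.02 RPM of H3.3K36M and 12.8 RPM of H3.3WT. Acta2 had a flank peak of 4 kb, chr19:34359401-34363400. Threshold and control of the peak calls are not given in the sources used here.

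H3.3K36M and H3.3WT differed less at these genes than H3.3 did from H3.1. None of the 71 rows passed 2-fold upwards, which 2.94% of all bins did, or downwards, which 1.81% did. At these shares few of 71 rows would pass, so their absence does not set these genes apart. The median of all bins in this log2 ratio was 0.10, that of the 11 window rows was -0.04 and that of the 6 windows was -0.11. Ctgf was the window in which H3.3K36M was higher with an interval clear of 1, at 1.23-fold (1.11 to 1.37). H3.3K36M was 1.25-fold lower at Acta2 (1.16 to 1.36), 1.16-fold lower at Actb (1.05 to 1.29) and 1.15-fold lower at Thbs1 (1.07 to 1.23). At Cyr61 the ratio was 1.09 (0.991 to 1.21) and at Vim 0.976 (0.908 to 1.05), both with intervals that include 1. With the median of all bins subtracted, the log2 ratio was 0.19 at Ctgf, 0.03 at Cyr61, -0.14 at Vim, -0.30 at Thbs1, -0.32 at Actb and -0.43 at Acta2.

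In the flanks, H3.3K36M was lower than H3.3WT in 43 of 60 rows, and in 10 of 10 at Thbs1, while it was lower in 41.6% of all bins. Of these flank rows, 59 of 60 were above the H3.3WT library median. No comparison with bins of like H3.3WT signal was made, so whether the difference is particular to these loci was not tested. The Thbs1 flanks averaged 7.25 RPM for H3.3WT and 4.71 RPM for H3.3K36M, 1.54-fold lower (1.45 to 1.63). The lowest ratio there was at chr2:117980001-117990000, where H3.3WT held 7.87 RPM and H3.3K36M 3.99 RPM, 1.97-fold lower (1.63 to 2.40), and the highest at chr2:117890001-117900000, still 1.25-fold lower. Ctgf flanks were 1.22-fold lower (1.16 to 1.28), most at chr10:24360001-24370000, where 6.60 RPM in H3.3WT stood against 3.70 RPM, and least at chr10:24300001-24310000, with a ratio of 1.13 (0.995 to 1.29). Acta2 and Vim held rows in both directions with intervals clear of 1. At Acta2, chr19:34270001-34280000 was 1.25-fold higher in H3.3K36M (1.12 to 1.40), and chr19:34370001-34380000 was 1.64-fold lower (1.44 to 1.88). In the Vim flanks the ratio was 1.03 (0.984 to 1.08), with chr2:13460001-13470000 1.30-fold higher (1.14 to 1.47) and chr2:13550001-13560000 1.32-fold lower (1.09 to 1.60). Cyr61 flanks were 1.06-fold higher (1.01 to 1.11), from a ratio of 0.857 (0.719 to 1.02) at chr3:145260001-145270000 to 1.25 (1.07 to 1.47) at chr3:145330001-145340000. Those of Actb were 1.11-fold lower (1.06 to 1.16), from 0.693 (0.584 to 0.822) at chr5:143630001-143640000 to 1.10 (0.984 to 1.24) at chr5:143670001-143680000.

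The window therefore stood out from its flanks more in H3.3K36M than in H3.3WT at Ctgf and Thbs1. The ratio of window to flanks went from 1.91 in H3.3WT to 2.87 in H3.3K36M at Ctgf, a 1.50-fold increase (1.33 to 1.69), and from 1.84 to 2.47 at Thbs1, 1.34-fold (1.23 to 1.47). At Acta2 it went from 1.43 to 1.28, a ratio of 0.897 (0.821 to 0.980), but with flanks of 100 kb that ratio was 1.02. Intervals at Cyr61 (0.927 to 1.15), Vim (0.871 to 1.03) and Actb (0.853 to 1.07) included 1. With other flank choices it was 1.32 to 1.84 at Ctgf and 1.31 to 1.45 at Thbs1. At Thbs1 the flanks were lower by more than the window, and at Ctgf the flanks were lower and the window higher. The Thbs1 window rows did not all move alike. Relative to the flank mean, the first row went from 1.40 in H3.3WT to 2.22 in H3.3K36M and the middle row from 2.15 to 3.46. The last row, chr2:117950001-117960000, went the other way, from 1.95 to 1.73.

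**Figure D4:**
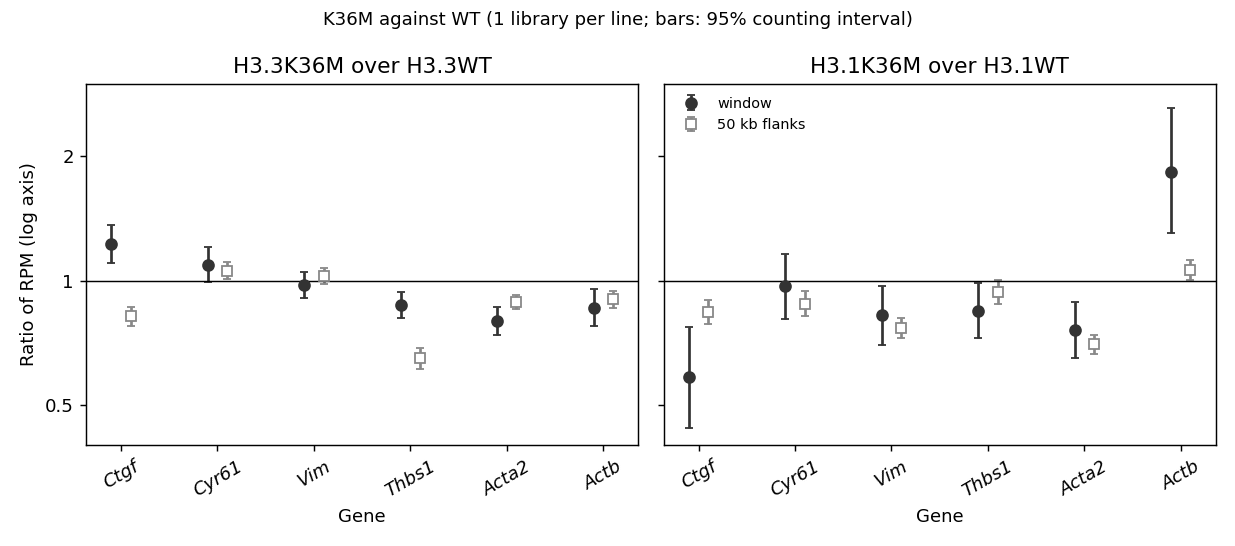
Ratio of K36M to WT signal (y axis, log scale) by gene (x axis) for H3.3 on the left and H3.1 on the right, with filled circles for windows, open squares for 50 kb flanks and 95% counting intervals from 1 library per line. In H3.3 the Thbs1 flanks (0.649) lie lowest, and in H3.1 the windows of Actb (1.84) and Ctgf (0.585) lie on opposite sides of 1.

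H3.1K36M and H3.1WT were also within 2-fold in all 71 rows, where 0.0122% of all bins were 2-fold higher and 0.064% 2-fold lower, so nearly all bins did the same. Over the windows the median log2 ratio was -0.25. By single rows it was -0.24 over the window rows and -0.26 over the flank rows, against 0.00 for all bins (-0.000935). H3.1K36M was lower in 9 of 11 window rows and 46 of 60 flank rows, against 50.2% of all bins. Of the flank rows, 57 of 60 were above the H3.1WT library median, and bins of like signal were not compared here either. In the windows, H3.1K36M differed from gene to gene. H3.1K36M was 1.71-fold lower in the Ctgf window (1.29 to 2.27), 1.32-fold lower at Acta2 (1.12 to 1.54), 1.21-fold lower at Vim (1.03 to 1.43) and 1.18-fold lower at Thbs1 (1.01 to 1.37). At Cyr61 the ratio was 0.970 (0.809 to 1.16).

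Actb was the exception, with H3.1K36M 1.84-fold higher in its window (1.31 to 2.61), from 51 reads in H3.1WT and 110 in H3.1K36M. With 1 more row on either side its log2 ratio was 0.11 in place of 0.83. Its H3.1 dip was thus shallower in the K36M line, the window holding 0.366 of the flank signal (0.300 to 0.443) against 0.212 in H3.1WT, a 1.73-fold difference (1.22 to 2.47). At Ctgf the dip was deeper in K36M, 0.491 against 0.704 (ratio 0.697, 0.521 to 0.929). At the other 4 genes the intervals of this ratio included 1. The flanks of Acta2 and Vim were lower in H3.1K36M in 10 of 10 rows each, by 1.42-fold (1.35 to 1.50) and 1.30-fold (1.23 to 1.38). Chromosome-wide medians lay near 0 here, at 0.00 for chromosome 19 (0.000361) and 0.02 for chromosome 2.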

How the data were processed

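HA ChIP-seq libraries of 4 C3H10T1/2 lines, 1 per line, were analysed; the 4 input libraries were not used here. Groups follow the genotype label, since titles of both H3.3 samples begin with an H3.1 name. The labels' protocol names a Cbx2 antibody and the sample descriptions an HA antibody; the latter was taken. The submitters' processing notes name the tool Bowtie 1.0.0 and the build mm9; for binning, duplicate removal and the peak caller, nothing is given in the sources used here. What the authors deposited was RPM per bin, together with lists of peak positions on a 200 bp grid without a score. In every RPM column 100% of values under 400 reads were whole multiples of 1 read, within 0.05 of a read, so reads were recovered, 35487141 to 46749609 per library.

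Members and lists were chosen with earlier results of these data known. Rows of 10 kb on chromosomes 1 to 19 and X whose mean over the 4 libraries reached 0.5 RPM formed the background. Rows were called at 2-fold, a rule of size, on log2 of RPM plus 0.1 RPM, which understates the change of low rows. Folds of windows are ratios of RPM without a pseudocount, with exact Clopper-Pearson 95% intervals on recovered reads. Ratios of window to flanks were compared between lines with the exact conditional interval of the odds ratio, added after seeing the data, as were their other flank settings and the genome-wide shares of like contrasts. All intervals reflect counting error alone, and since no molecular identifiers are mentioned, reads need not be independent molecules. Overlap of peaks was at least 1 base.

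All 6 genes were named, with the row of highest H3.3WT and the flank rows of highest and lowest H3.3K36M over H3.3WT; other rows were chosen after their values were seen. A list of 11 related genes was not analysed here, since only a gene table of another build was at hand; for the same reason no gene of like pattern was named. Alternatives were scaling by the median of bin ratios, centring by chromosome, pseudocounts of 1 and 0.01 RPM, wider windows, no filter, other flanks and other peak rules. The ratio steps were tested on simulated data. Tools were Python 3.11.15 with scipy 1.17.1, pandas 2.3.3, matplotlib 3.10.9 and numpy 2.4.6.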

Additional observations from a re-analysis of the deposited data

Results flagged for a closer look

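The 2 H3 variants moved in opposite directions between K36M and WT in the windows of Ctgf and Actb, with both counting intervals clear of 1; the difference was not tested, since each line has 1 library. At Ctgf, H3.3K36M was 1.23-fold higher than H3.3WT while H3.1K36M was 1.71-fold lower than H3.1WT, a difference of 1.04 between the log2 ratios. At Actb, H3.3K36M was 1.16-fold lower while H3.1K36M was 1.84-fold higher, a difference of -1.05. H3.1 counts were low in these rows, with 128 reads in H3.1WT and 88 in H3.1K36M at Ctgf, and 51 and 110 at Actb. With 1 more row on either side, the log2 ratio of H3.1 at Actb went from 0.83 to 0.11 and that of H3.3 at Ctgf from 0.30 to 0.12.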

How the results depend on the processing

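All 4 HA libraries are single, so no setting that leaves out a replicate could be run. No alternative reversed the direction of a ratio between libraries in a window whose interval lay clear of 1. The median log2 ratio of the 6 windows for H3.3WT over H3.1WT was 2.00 as deposited. It was 2.43 scaled by the median of bin ratios, 2.26 centred by chromosome, 1.76 with a pseudocount of 1 RPM and 1.31 with 1 more row on either side. For H3.3K36M over H3.1K36M it was 2.14, and 2.45, 2.34, 1.88 and 1.34 under these settings. For H3.3K36M over H3.3WT it was -0.11, and -0.22 centred by chromosome. With windows widened by 1 row on either side, the log2 K36M over WT ratio was 0.12 for H3.3 at Ctgf and 0.11 for H3.1 at Actb, so both depended on the narrow window. All 11 window rows stayed at least 2-fold higher in H3.3 with scaling, centring and a pseudocount of 0.01 RPM, while a pseudocount of 1 RPM left 10 in WT. In windows widened by 1 row on either side, 14 of 23 rows passed in WT and 16 of 23 in K36M. The rows so added were flank rows. H3.3 was higher and H3.1 lower in the window than in its flanks at 6 of 6 genes with flanks of 20 and 100 kb and with the flank median. Of the changes in the ratio of window to flanks between H3.3WT and H3.3K36M, that at Acta2 turned from 0.897 to 1.02 with flanks of 100 kb. Where the interval included 1, Cyr61 went from 1.03 to 0.909 and Vim from 0.948 to 1.10 with the flank median, and Vim was 1.00 with flanks of 100 kb (1.0007); the cause was not tested. H3.3K36M peaks numbered 4 without flanks. With no filter, 0.0384% of all bins were 2-fold higher in H3.1K36M. Single windows with few H3.1 reads, such as Actb with 51, have wide intervals.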

Other observations

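Elsewhere in the genome, H3.1 was lower at a majority of local rises of H3.3, but not at all of them. Of the 10667 positions in the genome where a 10 kb row held at least 1.5 times the H3.3WT of its 5 neighbours on either side, H3.1WT was below its own neighbours at 63.9%, with a median ratio of 0.925 against 1.01 at all positions. Over all positions H3.1WT was below its neighbours at 47.1%. The 10th and 90th percentiles of the H3.1WT ratio at the 10667 positions were 0.681 and 1.28. A 10 kb row at Actb (0.212) and at Ctgf (0.704) can be set beside these, as both genes have windows of 1 row and pass the same rule. The Ctgf row lay between these percentiles and the Actb row below them. In the K36M lines the same rule took 15661 positions, with a median of 0.943. H3.1K36M was below its neighbours at 61.5% of them, against 46.3% of all positions.

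Across the 71 rows, with each gene's mean log2 signal subtracted, Pearson's r between H3.1WT and H3.3WT was -0.37 (Spearman's rho -0.42). Over the 60 flank rows alone r was -0.08 (rho -0.18). In the K36M lines r was -0.39 (rho -0.43) over all rows and 0.02 (rho -0.18) over the flanks. Taken gene by gene over all rows, r was negative at 6 genes in WT and at 5 in K36M, where Vim had 0.06. Over all 245206 bins, not centred, r was positive, 0.51 in the WT lines and 0.52 in the K36M lines. No r with a local mean subtracted was computed over all bins. Whether the sign at these loci differs from that of the genome was therefore not tested. Rows of a gene adjoin each other and share the same 2 libraries, so these are descriptions.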
